A study of Drosophila melanogaster with 2 samples.

Results

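The tRNA genes of Drosophila melanogaster were examined in chromatin immunoprecipitation and sequencing (ChIP-seq) peak lists of Mnt-eGFP, a C-terminal GFP fusion of the transcription factor Mnt. The members were the 290 genes of biotype tRNA in the Ensembl release 115 annotation of the dm6 build, among 18164 annotated genes on 2L, 2R, 3L, 3R, 4 and X. There were 98 of them on 2R, 79 on 3R, 48 on 3L, 41 on 2L, 24 on X and 0 on 4. The series held 1 group with 2 biological replicates: whole adult females, age not recorded, of a stable transgenic line, precipitated through the GFP tag. Whether these flies also made untagged Mnt is not stated in the labels. Flies without the transgene or with another dose of Mnt were not analysed here, so the only error available was the spread between the replicates. A whole fly mixes all its tissues, and a peak does not show which cells carried the protein.

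Transfer RNAs bring amino acids to the ribosome and are transcribed by RNA polymerase III. A tRNA gene carries its promoter inside the gene, as the A box and the B box that the factor TFIIIC reads. TFIIIC then brings TFIIIB to the DNA before the start. Mnt is a repressor of the Myc network that pairs with Max on the E-box CACGTG. Myc, its opponent, is known to raise polymerase III transcription through TFIIIB. In the gene symbols, the amino acid (the isotype) is followed by the anticodon, a number for the sequence variant and a number for the copy.

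The reference sequences of tRNA genes at 5 peaks (3 glutamine, 1 serine, and 1 alanine and proline) are given first. At these peaks the summit lay closer to a tRNA start than to a protein-coding start, and the sequences show how alike the copies are. They were read from the Release 6 (dm6) sequence of RefSeq, 5′ to 3′ on the strand of the gene, and capitals mark the B box letters GTTCNANNC. The last line is the plus strand around the E-box under the peak of tRNA:Gln-CTG-2-4, with CACGTG in capitals.
tRNA:Gln-CTG-2-4: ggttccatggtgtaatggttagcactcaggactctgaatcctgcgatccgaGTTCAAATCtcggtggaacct
tRNA:Gln-CTG-3-1: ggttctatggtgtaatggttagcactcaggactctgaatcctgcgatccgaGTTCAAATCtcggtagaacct
tRNA:Gln-TTG-1-3: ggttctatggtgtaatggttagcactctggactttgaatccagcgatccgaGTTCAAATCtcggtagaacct
tRNA:Gln-TTG-2-1: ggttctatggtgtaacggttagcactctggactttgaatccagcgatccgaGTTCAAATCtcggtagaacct
tRNA:Ser-AGA-2-4: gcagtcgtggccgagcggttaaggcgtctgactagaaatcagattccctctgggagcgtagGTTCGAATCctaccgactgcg
tRNA:Ala-AGC-2-2: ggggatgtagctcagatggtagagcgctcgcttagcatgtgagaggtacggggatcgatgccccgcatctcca
tRNA:Pro-TGG-1-2: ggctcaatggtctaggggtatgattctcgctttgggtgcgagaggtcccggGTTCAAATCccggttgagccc
E-box beside tRNA:Gln-CTG-2-4: tttcttaacaCACGTGctgcaaaaaa

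These genes lie at chr2L:2010646-2010717, chr2L:2010869-2010940, chr3R:26947512-26947583, chrX:3427452-3427523, chr2L:3173003-3173084, chr3R:17619738-17619810 and chr3R:17619961-17620032, in the order printed, and the E-box stretch at chr2L:2010519-2010544. The glutamine genes tRNA:Gln-CTG-2-4 and tRNA:Gln-CTG-3-1 stood beside each other and differed at 2 of 72 bases. The genes tRNA:Gln-TTG-1-3 and tRNA:Gln-TTG-2-1 lay on different chromosomes and differed at 1 base. The gene tRNA:Ala-AGC-2-2 held no GTTCNANNC, and its sequence was shared by 11 genes. Over all members, gene length ran from 71 to 186 bp with a median of 73 bp.

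Strong Mnt-eGFP peaks were found at 35 of the 290 tRNA genes (12.1%). A gene is called bound here when the summit of a peak in the reproducible ("optimal") list lay within 500 bp of the gene's start. That list held 7451 peaks, thresholded on the irreproducible discovery rate, with signals from 77.1 to 2444 (median 141). The signal is the authors' own enrichment value of a region on a scale that is not given, and it is used only to rank regions within a list. Over all 18164 genes 29.7% were bound by the same rule, so the tRNA share lay below the background. At 250 bp, 22 tRNA genes were bound (7.59%), against 25.2% of all genes. Other non-coding genes (biotypes ncRNA, snoRNA, snRNA and rRNA) were bound in 363 of 3661 cases (9.92%). Of these, snoRNA genes (37 of 269, 13.8%) and snRNA genes (6 of 32, 18.8%) had higher shares than tRNA genes. The ncRNA genes (320 of 3261, 9.81%) and rRNA genes (0 of 99) had lower ones. Protein-coding genes were bound at the annotated gene start in 4979 of 13945 cases (35.7%).

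The replicates gave similar numbers. Each replicate alone was represented by the 7451 strongest of the 30000 regions in its list. Replicate 1 placed a summit at 36 tRNA genes, where it reached 30.4% of all genes, and replicate 2 at 39, where it reached 25.7% of all genes. The tRNA share was 12.9% ± 0.731 (SD, n = 2), and the share of other non-coding genes was 9.49% ± 0.0579 (SD, n = 2). The gap between these means was larger than either spread, but its direction depended on the rule. With the stronger 3726 optimal peaks, 5.17% of tRNA genes and 5.41% of other non-coding genes were bound. By overlap of a region with the gene body the shares were 7.59% of tRNA genes and 9.81% of other non-coding genes. A set of 26 tRNA genes was found by both replicates, which is 72.2% of those of replicate 1 and 66.7% of those of replicate 2. Of the 35 tRNA genes bound in the optimal list, 26 were found by both replicates, 7 by replicate 1 alone and 2 by replicate 2 alone.

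A protein-coding start nearby went with a higher bound share. Of the 32 tRNA genes with a protein-coding transcript start within 500 bp, 13 were bound (40.6%), against 22 of the 258 without one (8.53%). Replicate 1 gave 11 and replicate 2 gave 14 of the 32 genes, a mean of 39.1% ± 6.63 (SD, n = 2), and each replicate gave 25 of the 258 (9.69%). Other non-coding genes showed the same split, with 191 of 579 bound beside a protein-coding start (33.0%) and 172 of 3082 bound away from one (5.58%). Among all genes that are not protein-coding and have no protein-coding start within 500 bp, 5.56% were bound. Away from protein-coding starts the replicate means were therefore 9.69% for tRNA genes, equal in both replicates, and 5.52% ± 0.275 (SD, n = 2) for other non-coding genes. By biotype, the optimal list there gave 21 of 240 snoRNA genes (8.75%) and 5 of 29 snRNA genes (17.2%), against 8.53% of tRNA genes. Of ncRNA genes 5.38% were bound, and of rRNA genes 0 of 99. The higher share was thus not particular to tRNA genes. At 250 bp the shares away from such starts were 6.20% of tRNA genes and 3.73% of other non-coding genes. With the stronger 3726 peaks at 500 bp the order turned, with 2.33% of these tRNA genes and 2.89% of these other non-coding genes bound.

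In all, 27 optimal summits lay within 500 bp of a tRNA start, 18 of them within 250 bp. Each bound gene was assigned its strongest peak, which gave 23 peaks for the 35 genes, since neighbouring genes can lie under 1 peak. The other 4 summits were weaker ones near the same genes and are described after the 23. At 11 of these peaks, with 13 tRNA genes, the summit also lay within 500 bp of a protein-coding start, and their signals ran from 88.2 to 632 (median 152). At the other 12 peaks, with 22 tRNA genes, signals ran from 81.9 to 393 (median 116). The optimal list had a median of 141, and 12 of the 23 peaks stood at or above it. Both full replicate lists held a region at all 23 peaks. The 7451 strongest regions held 22 of them in replicate 1 and 20 in replicate 2, with 19 in both.

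**Figure D1:**
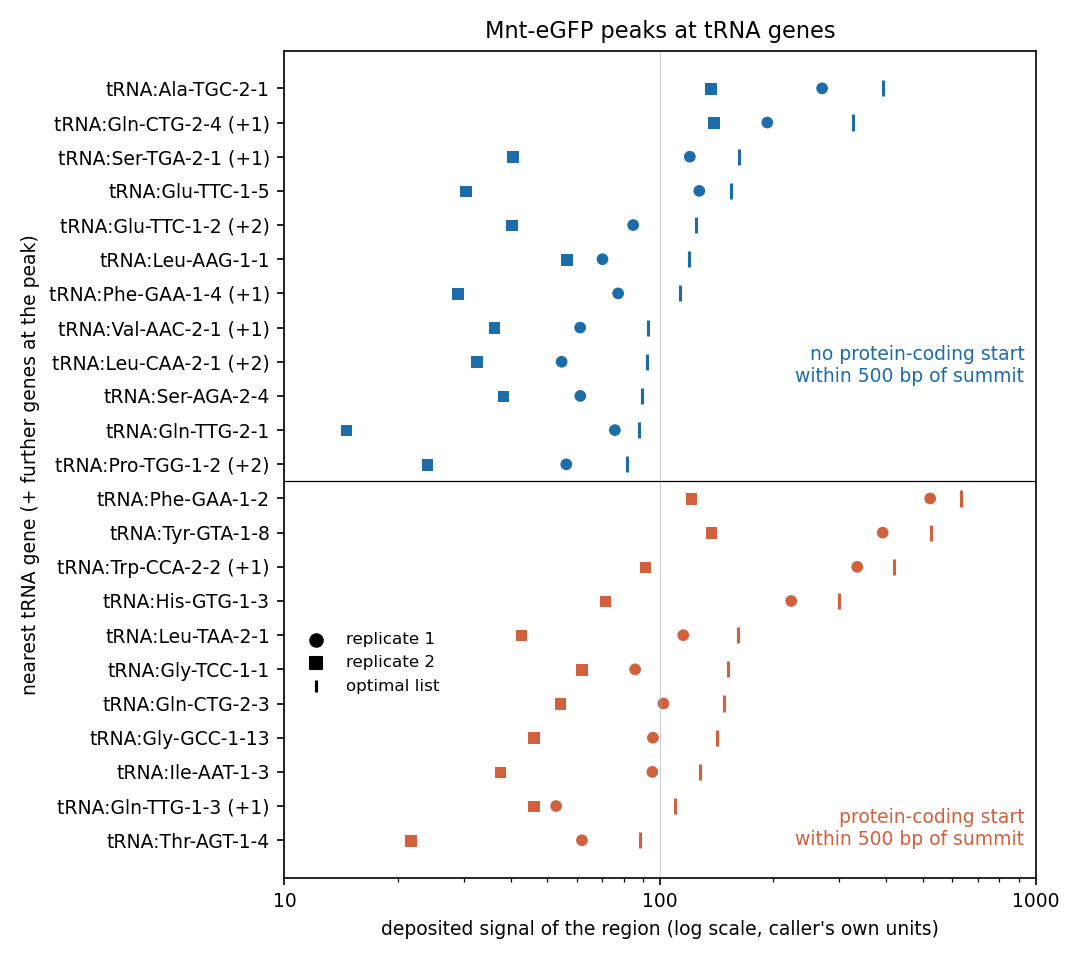
Signal of the 23 optimal peaks that were the strongest of a tRNA gene (ticks) and of the strongest region with a summit within 250 bp of the same position in replicate 1 (circles) and replicate 2 (squares), on a log axis in the caller's own units. Blue peaks have no protein-coding start within 500 bp of the summit and orange peaks have one; the highest tick, 632, is at tRNA:Phe-GAA-1-2. The lists differ in scale, so positions compare peaks within 1 list.

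The strongest peak at a tRNA gene lay beside tRNA:Phe-GAA-1-2, at chrX:6744019-6744495, with a signal of 632 and rank 246 in the optimal list. Its signal was 524 in replicate 1 (rank 179) and 121 in replicate 2 (rank 720). The summit was 18 bp from a start of RpL17, which makes a large-subunit ribosomal protein, and 287 bp from the start of the tRNA gene.

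The protein-coding start was also the closer at the next 3 peaks of this kind. At tRNA:Tyr-GTA-1-8 (signal 527, against 391 in replicate 1 and 137 in replicate 2) the summit was 193 bp from a start of CG8036 and 251 bp from the tRNA start. At the peak shared by tRNA:Trp-CCA-2-2 and tRNA:Gly-GCC-1-9 (signal 419; 335 in replicate 1 and 91.2 in replicate 2) it was 57 bp from CG30122 and 230 bp from the nearer tRNA gene. At tRNA:His-GTG-1-3 (signal 299; 223 in replicate 1 and 71.3 in replicate 2) it was 61 bp from CG8490 and 189 bp from the tRNA start. In all, the protein-coding start was the closer of the 2 at 8 peaks with a median signal of 225, and the tRNA start was closer at 15 peaks with a median of 113.

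The remaining peaks beside protein-coding starts were weaker. At tRNA:Gly-TCC-1-1 (signal 152) the summit lay 4 bp from a start of CG31248 and 395 bp before the tRNA gene. At tRNA:Gly-GCC-1-13 (signal 142) it lay 33 bp from tud, which encodes the Tudor protein of the germ plasm. At tRNA:Ile-AAT-1-3 (signal 127) it lay 31 bp from ATP8A, a phospholipid flippase gene, and 491 bp from the tRNA start. At tRNA:Gln-CTG-2-3 (signal 148) it lay 75 bp from CG4238. At tRNA:Leu-TAA-2-1 (signal 162), tRNA:Gln-TTG-1-3 (signal 110) and tRNA:Thr-AGT-1-4 (signal 88.2) the tRNA start was the closer, at 272, 89 and 41 bp.

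Away from protein-coding starts the strongest peak was at tRNA:Ala-TGC-2-1, at chr2R:17392384-17392732. It had a signal of 393 and rank 647, with 270 in replicate 1 (rank 700) and 136 in replicate 2 (rank 591). Its summit lay 356 bp downstream of the tRNA start, and the nearest protein-coding start, that of CG10939, was 2022 bp from the summit. It ranked among the strongest 1000 regions in each list.

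The second was the peak of tRNA:Gln-CTG-2-4 and tRNA:Gln-CTG-3-1, at chr2L:2010423-2010673. It had a signal of 327 and rank 923, with 193 in replicate 1 (rank 1244) and 139 in replicate 2 (rank 568). Its summit was 162 bp downstream of the start of tRNA:Gln-CTG-2-4 and 696 bp from CG4238. The E-box printed above lies inside this region, at -23 bp from the summit along the reference strand, measured from its middle.

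The next peaks were those of tRNA:Ser-TGA-2-1 with tRNA:Ser-TGA-1-1 (signal 162; 120.0 in replicate 1 and 40.4 in replicate 2) and of tRNA:Glu-TTC-1-5 (signal 154; 127 in replicate 1 and 30.3 in replicate 2). The first lay 140 bp before the nearer tRNA gene and also held an E-box near its summit. The second had its nearest protein-coding start, that of CG8517, 13112 bp away. A peak over tRNA:Glu-TTC-1-2, tRNA:Glu-TTC-1-1 and tRNA:Glu-CTC-1-1 (signal 125; 84.8 in replicate 1 and 40.3 in replicate 2) lay 132 bp before the nearest of the 3 genes. These 3 peaks all lay on 2R, between 1873 and 13112 bp from a protein-coding start.

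Several of the weaker peaks sat on the tRNA start itself. The summit lay 22 bp before tRNA:Leu-AAG-1-1 (signal 119; 70.2 in replicate 1 and 56.4 in replicate 2). It lay 37 bp before tRNA:Phe-GAA-1-4 (signal 113; 77.3 in replicate 1 and 28.9 in replicate 2). It lay 58 bp before tRNA:Leu-CAA-2-1 (signal 92.0; 54.7 in replicate 1 and 32.5 in replicate 2). At tRNA:Pro-TGG-1-2, flanked by tRNA:Ala-AGC-2-2 and tRNA:Ala-AGC-2-3, the summit was 45 bp into the gene, the only summit of the 23 inside a tRNA gene. That peak was also the weakest, with a signal of 81.9, and had 56.3 in replicate 1 and 24.0 in replicate 2.

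The last peaks away from protein-coding starts had summits between 110 and 226 bp from the tRNA start. They were at tRNA:Val-AAC-2-1 with tRNA:Ser-CGA-1-4 (signal 92.7), at tRNA:Ser-AGA-2-4 (signal 89.3) and at tRNA:Gln-TTG-2-1 (signal 87.7). The last of these had 75.8 in replicate 1 (rank 5178) and 14.6 in replicate 2, where its rank of 12732 was far below the strongest 7451. Over the 35 bound genes, the summit lay upstream of the start at 19 and inside or downstream at 16, between 22 and 491 bp away with a median of 226 bp. On the strand of the gene the median position was -37 bp. Of the 23 regions, 13 overlapped the body of a tRNA gene.

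The 4 further summits stood beside stronger ones of the same genes. A summit with a signal of 115 (rank 4750) lay between the 2 glutamine genes on 2L, 39 bp from the start of tRNA:Gln-CTG-2-4. One with a signal of 86.9 (rank 6615) lay 34 bp from tRNA:Ser-AGA-2-4, and one with a signal of 104 (rank 5435) lay 139 bp from tRNA:Glu-TTC-1-5. These 3 were weaker than the peak first assigned to the gene and closer to its start. The last, with a signal of 87.0 (rank 6607), lay 6 bp from a start of CG8036 and 450 bp from tRNA:Tyr-GTA-1-8. Of all 27, 12 had a protein-coding start within 500 bp, and 16 regions overlapped the body of a tRNA gene.

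At the edges of the rule, the last peak inside 500 bp was the one 491 bp from tRNA:Ile-AAT-1-3. The first outside lay 522 bp from tRNA:Val-CAC-2-5, with a signal of 94.0 and rank 6070. The weakest peak of the optimal list had a signal of 77.1. The strongest region at a tRNA gene that missed the list had a signal of 73.9 (rank 7773; 51.4 in replicate 1 and 20.6 in replicate 2). It lay in a group of cysteine and lysine tRNA genes on 3L, within 500 bp of tRNA:Cys-GCA-1-1, tRNA:Cys-GCA-1-2, tRNA:Cys-GCA-1-3 and tRNA:Lys-CTT-1-12. The next, with a signal of 73.0 and rank 7862, lay at tRNA:Leu-CAG-1-3 and tRNA:Leu-CAG-1-4, also on 3L.

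Weak regions were present at many tRNA genes that had no strong peak. The pooled list, made from both replicates, held 30000 regions that include background, with signals down to 13.6 and a median of 33.7. A pooled summit lay within 500 bp of 180 of the 290 tRNA genes (62.1%), against 1058 of 3661 other non-coding genes (28.9%) and 8489 of 13945 protein-coding genes (60.9%). Over all genes 53.8% had one, and 45.1% within 250 bp. The pooled list contains the optimal list, so it reaches at least as many genes of any class. Over all genes the optimal share within 500 bp was 29.7%. At 145 tRNA genes the pooled list held only regions below the optimal threshold. The strongest pooled region at a tRNA gene had a median signal of 38.4 and a median rank of 13552.

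The contrast with other non-coding genes was wider away from protein-coding starts. There, 159 of 258 tRNA genes had a pooled summit within 500 bp (61.6%), against 713 of 3082 other non-coding genes (23.1%). For all genes that are not protein-coding and lie away from such starts, the share was 25.3%. Within 250 bp the counts were 120 tRNA genes (46.5%) and 423 other non-coding genes (13.7%). Neighbouring tRNA genes can share 1 pooled summit, so these genes are not all separate observations. Of the 98 tRNA genes there with no other tRNA start within 1000 bp, 48 had a pooled summit within 500 bp (49%). Within 250 bp, 38 of these 98 genes had one (38.8%). Of the 160 tRNA genes there with another tRNA start within 1000 bp, 111 had one within 500 bp (69.4%). The other non-coding genes were not split in this way. Small nucleolar RNA genes away from protein-coding starts, which are also short, had a pooled summit within 500 bp in 85 of 240 cases (35.4%). Of snRNA genes there, 12 of 29 had one (41.4%).

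Each replicate showed the contrast in its own full list. A summit within 500 bp was found at 189 tRNA genes in replicate 1 (65.2%) and at 159 in replicate 2 (54.8%), where 54.5% and 48.7% of all genes had one. Away from protein-coding starts the share was 59.3% ± 8.22 of tRNA genes and 23.0% ± 1.45 of other non-coding genes (SD, n = 2 each), a gap larger than either spread. The lower tRNA share, 53.5% in replicate 2, stood above the higher share of other non-coding genes, 24.0% in replicate 1. Both replicates found a region at 141 tRNA genes (48.6%), replicate 1 alone at 48, replicate 2 alone at 18 and neither at 83. Of other non-coding genes 19.7% and of protein-coding genes 49.4% had a region in both replicates.

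The rank of the regions differed along with these shares. Among the 3726 strongest pooled regions, 0.134% had a summit within 250 bp of a tRNA start. The share was 0.349% for ranks 3727 to 7451, 0.649% for ranks 7452 to 15000, 0.653% for ranks 15001 to 22500 and 0.227% for ranks 22501 to 30000. Regions of middle rank thus held the highest shares, and both the strongest and the weakest held fewer. With the 1000 strongest regions, 0.388% of tRNA genes and 0.454% of other non-coding genes away from protein-coding starts were reached within 250 bp, and with 2500 regions 0.388% of these tRNA genes and 1.17% of these other non-coding genes. Both tRNA shares were the same 1 gene of 258, against 14 and 36 of 3082 other non-coding genes. The lower tRNA share among the strongest regions thus rested on 1 gene. With the 5000 strongest regions, 2.71% of tRNA genes and 2.37% of other non-coding genes away from protein-coding starts were reached within 250 bp. With 15000 regions, 26.4% of these tRNA genes and 6.68% of these other non-coding genes were reached.

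**Figure D2:**
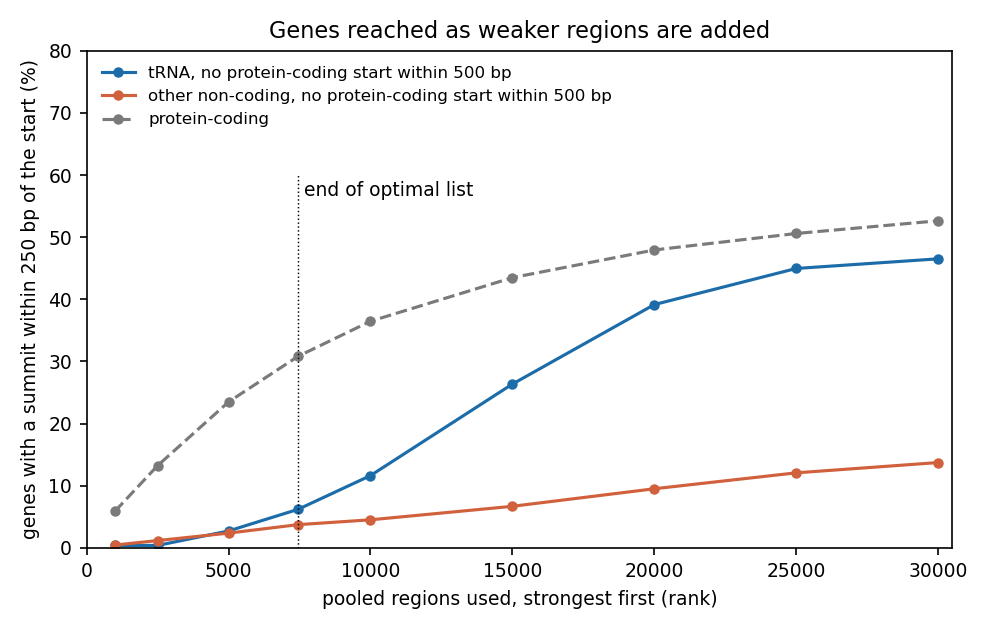
Share of genes with a summit within 250 bp of the start (y axis, percent) as the pooled regions are taken in order of signal, strongest first (x axis, number of regions used). The dotted line marks the 7451 regions of the optimal list. Blue is tRNA genes and orange other non-coding genes, both without a protein-coding start within 500 bp; grey is protein-coding genes. The blue line climbs from 6.20% at the dotted line to 46.5% at 30000 regions, and the orange line from 3.73% to 13.7%.

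The weak regions lay close to the tRNA genes. This was seen at the 79 lone tRNA genes, which had no other tRNA start and no protein-coding start within 1000 bp. Within 200 bp of their starts lay 26 pooled summits, 31 summits of replicate 1 and 24 of replicate 2. From 801 to 1000 bp, which is the same length of DNA, lay 5 pooled summits, 5 of replicate 1 and 1 of replicate 2. Per 100 genes that is 32.9 near and 6.33 far summits in the pooled list. The 2635 other non-coding genes with no protein-coding start within 1000 bp had 11.9 near and 10.5 far summits per 100 genes. Unlike the lone tRNA genes, these were not required to lie apart from each other or from tRNA genes. Only 2 optimal summits lay within 1000 bp of the lone tRNA genes. Most of what was seen at isolated tRNA genes therefore lay below the reproducible threshold, as did most of the 30000 pooled regions.

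**Figure D3:**
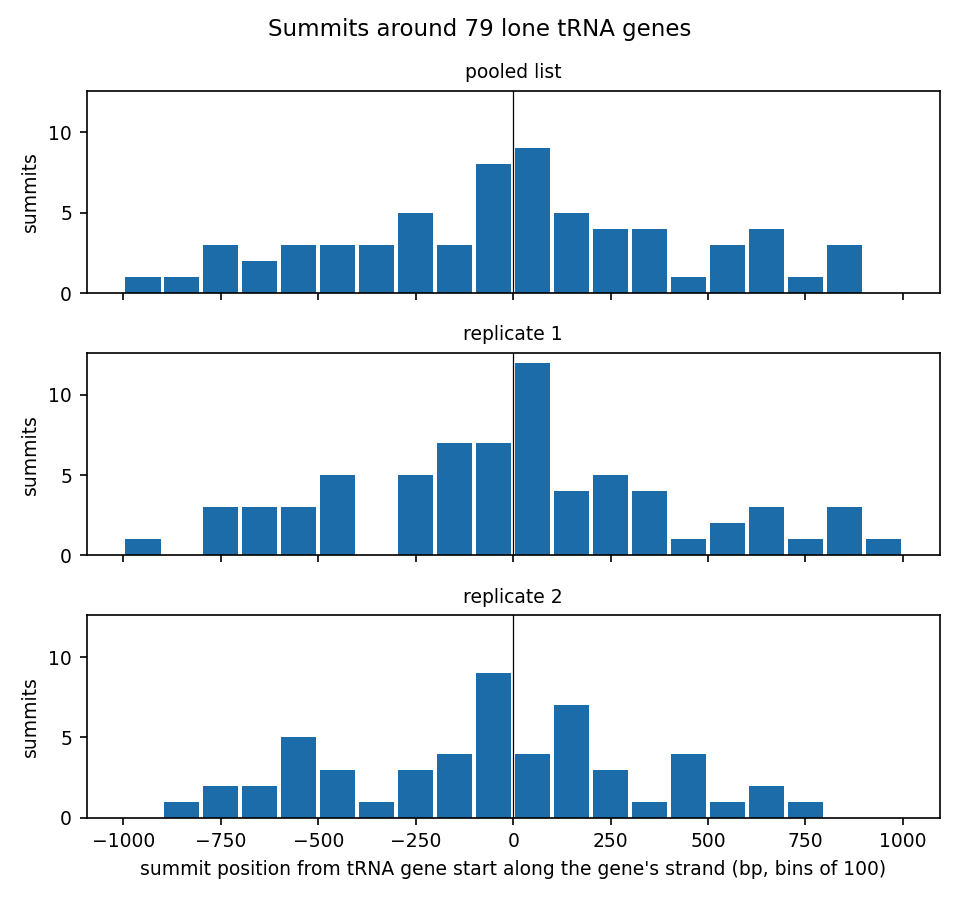
Positions of summits around the 79 lone tRNA genes in the pooled list and in each replicate's full list of 30000 regions. The x axis is the distance from the tRNA start along the gene's strand in bins of 100 bp (negative is upstream) and the y axis the number of summits in a bin. In each panel the highest bin touches the start, with 9 pooled summits from 0 to 100 bp.

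Isotypes differed in how many genes were bound. Of 22 isotypes, 14 had a bound gene. Glutamine had the highest share, with 6 of 12 genes, all 6 within 250 bp (4 in replicate 1 and 5 in replicate 2). These 6 genes were assigned to 4 peaks on 2L, 3R and X, with 1 further summit between tRNA:Gln-CTG-2-4 and tRNA:Gln-CTG-3-1, so they are not 6 separate observations. Phenylalanine followed with 3 of 8 genes, isoleucine with 3 of 11, glutamate with 4 of 19, and serine with 4 of 20. Histidine had 1 of 5, alanine 3 of 17, glycine 3 of 20, leucine 3 of 22, tryptophan 1 of 8, tyrosine 1 of 10, valine 1 of 15, and proline and threonine 1 of 17 each. Other isotypes shared peaks too: 3 glutamate genes lay at 1 peak and 2 phenylalanine genes at another. The third phenylalanine peak lay 18 bp from a start of RpL17. At all peaks assigned to glycine, histidine, tryptophan and tyrosine genes, a protein-coding start was closer to the summit than the tRNA start.

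No gene was bound among the 26 arginine, 19 lysine, 14 aspartate, 10 asparagine, 7 cysteine, 6 elongator methionine, 6 initiator methionine and 1 selenocysteine tRNA genes. Weak regions were present at these isotypes too. Of their 89 genes, 54 had a pooled summit, among them 15 arginine, 10 aspartate, 9 lysine and 8 asparagine genes. In replicate 2 alone, 2 arginine genes, 1 lysine gene and 1 methionine gene had a summit among the strongest 7451 regions, and in replicate 1 none of the 89 genes did. The pooled share over isotypes with 5 or more genes ran from 8 of 20 for glycine to 10 of 11 for isoleucine.

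**Figure D4:**
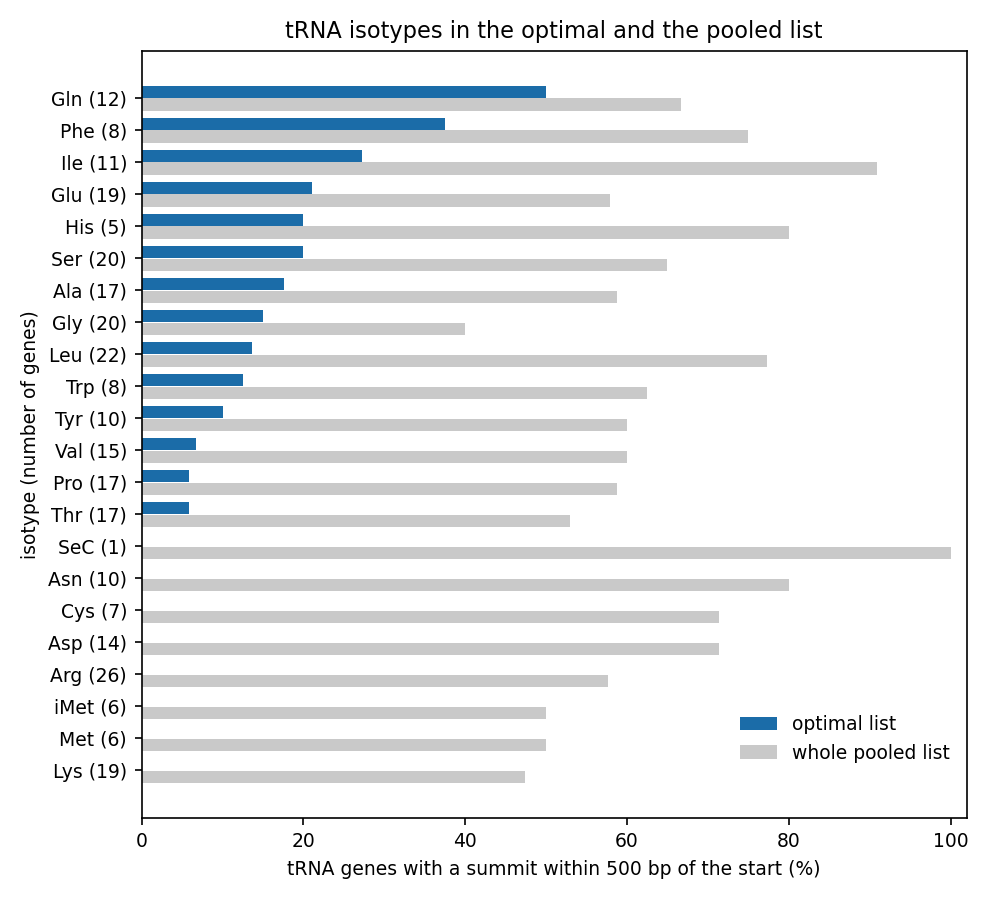
Share of the tRNA genes of each isotype with a summit within 500 bp of the start (x axis, percent) in the optimal list (blue) and in the whole pooled list (grey). The number of genes is given in brackets. Blue bars are present for 14 isotypes and highest for glutamine (6 of 12 genes), while grey bars are present for all 22.

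Many tRNA genes lie in clusters, and the bound share was higher there overall and away from protein-coding starts. Of the 183 tRNA genes with another tRNA start within 1000 bp, 28 were bound (15.3%), against 7 of 107 single genes (6.54%). Replicate 1 gave 29 and replicate 2 gave 32 clustered genes, against 7 single genes in each. Away from protein-coding starts, 19 of 160 clustered genes (11.9%) and 3 of 98 single genes (3.06%) were bound. Beside protein-coding starts the order was the opposite in these few genes, with 9 of 23 clustered genes (39.1%) and 4 of 9 single genes (44.4%) bound. Clustered genes share peaks, so whole clusters were counted as well. There, 8 of 51 clusters with no member near a protein-coding start held a bound gene (15.7%; 9 in each replicate), against 3 of 98 single genes (3.06%; 3 in replicate 1 and 2 in replicate 2). A cluster also covers more DNA than a single gene, and the share was not corrected for that.

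The 2 largest clusters had 7 genes each and differed. The cluster of isoleucine and leucine tRNA genes at chr2R:13430282-13432794 had 4 bound genes, and all 7 had a pooled summit, the strongest with a signal of 127 (rank 4206). The cluster of arginine and serine tRNA genes at chrX:14014814-14017284 had 0 bound genes, and 3 had a pooled summit, the strongest with a signal of 28.7 (rank 16846). The asparagine and arginine genes at chr3R:8139533-8141042 had 0 of 6 bound and 5 of 6 with a pooled summit. At chr3L:1397695-1398477, the 4 genes tRNA:Glu-CTC-3-4 to tRNA:Glu-CTC-3-7 had no summit within 500 bp in any list used.

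Copies with the same sequence were in different states for 16 of the 43 shared sequences. The 290 genes had 95 distinct sequences, and 43 of these were held by more than 1 gene. Those 16 had both bound and unbound copies, 27 had no bound copy and 0 had every copy bound. The 8 genes tRNA:Phe-GAA-1-1 to tRNA:Phe-GAA-1-8 had 3 bound copies, the 6 copies of tRNA:Glu-TTC-1 had 3, the 5 copies of tRNA:Gln-CTG-2 had 2, the 13 copies of tRNA:Gly-GCC-1 had 2, and the 13 copies of tRNA:Lys-CTT-1 had 0. In all, 26 of 238 genes with a shared sequence (10.9%) and 9 of 52 genes with a sequence of their own (17.3%) were bound. The shares with a pooled summit were 62.2% and 61.5%. How reads that match several copies were placed is not given in the sources used here, and reads inside a gene body cannot be told apart between identical copies.

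Over all tRNA genes, bound shares were close inside and outside host genes. Of the tRNA genes inside a protein-coding gene 16 of 134 were bound (11.9%), and of those outside 19 of 156 (12.2%). Away from protein-coding starts, 12 of 117 inside were bound (10.3%; 12 in replicate 1 and 15 in replicate 2). Outside, 10 of 141 were bound there (7.09%; 13 in replicate 1 and 10 in replicate 2). Chromosome arms differed more. On 2R 20 of 98 tRNA genes were bound (20.4%; 20 in replicate 1 and 29 in replicate 2), where 30.3% of all genes were. On 3R 9 of 79 were bound (11.4%), on 2L 4 of 41 (9.76%) and on X 2 of 24 (8.33%). On 3L 0 of 48 were bound, with 3 in replicate 1 and 0 in replicate 2, although 29.2% of all genes on that arm were bound and 24 of the 48 had a pooled summit. The 16 tRNA genes with an intron had 2 bound members and 10 with a pooled summit, near the shares of all tRNA genes (12.1% and 62.1%).

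Motif shares at the tRNA peaks lay near those of all optimal peaks. Within 100 bp of the summit, on either strand, the E-box CACGTG was found at 2 of the 23 peaks at tRNA genes (8.70%) and at 644 of all 7451 optimal peaks (8.64%). Those 2 peaks were at tRNA:Gln-CTG-2-4 and tRNA:Ser-TGA-2-1. The Dref motif TATCGATA was found at 2 of the 23 (8.70%), beside CG30122 and CG8490, and at 6.19% of all optimal peaks. The motif GGTCACAC, known as motif 1 of fly core promoters, was found at 1 of the 23 (4.35%), at tRNA:Leu-TAA-2-1, and at 5.44% of all. None of these 3 motifs was found at the 4 further summits. From 250 bp before to 50 bp after the start, CACGTG was present at 17 of 290 tRNA genes (5.86%), against 4.23% of other non-coding genes and 4.21% of all genes. Of those 17 genes 1 was bound and 16 were not.

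The internal promoter letters had similar shares in bound and unbound genes. The B box letters GTTCNANNC, on the sense strand and chosen after the stricter GTTCGANNC had been counted, were present in 271 of 290 tRNA genes (93.4%), with 33 of 35 bound and 238 of 255 unbound genes. In the first bases of other non-coding genes, over the median length of a tRNA gene, they occurred in 0.929%. The stricter letters were present in 160 tRNA genes (55.2%), 19 of 35 bound and 141 of 255 unbound. The A box letters TNGNNNAGT were present in 157 (54.1%), 18 of 35 bound and 139 of 255 unbound, against 5.11% of other non-coding genes.

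Listed protein-coding genes of polymerase III transcription and tRNA processing were bound more often than the tRNA genes themselves. The list was not limited to factors of tRNA genes, and it held no TFIIIC gene. Of its 25 genes, 20 had an optimal summit within 500 bp of a transcript start, where 38.1% of all protein-coding genes did. The median signal of these 20 genes was 267. For TFIIIB, Bdp1 had a signal of 685 (517 in replicate 1 and 164 in replicate 2), Brf 383 (311 in replicate 1 and 73.4 in replicate 2) and Trf 274 (198 in replicate 1 and 81.1 in replicate 2). Trf is the relative of the TATA-binding protein that serves polymerase III in flies. All 3 signals lay above the optimal median.

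Among polymerase III subunits, Polr3A had a signal of 419 (286 in replicate 1 and 126 in replicate 2). Subunit genes with weaker peaks included Polr3F (113; 97.9 in replicate 1 and 14.3 in replicate 2) and Polr3G (80.4; 45.2 in replicate 1 and 37.8 in replicate 2). Strong peaks lay at genes for the processing of tRNA: RNaseZ, which trims the 3′ trailer (946), Mt2, a tRNA methyltransferase (983), and La, which binds the ends of new polymerase III transcripts (564). Of the 20 bound genes, 5 had CACGTG within 100 bp of the summit, among them Polr3A, La, RNaseZ and Mt2. Of all 7451 optimal peaks, 644 did (8.64%). The 5 genes not bound were Tbp, Polr3I, Pbp45, pbp95 and Maf1, the repressor of polymerase III.

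Other genes of polymerase III showed no common state. None of 96 genes for 5S rRNA was bound, where 29.7% of all genes were, and 1 had a pooled summit. Sequence sharing among the 5S genes was not examined, and how reads that match several copies were placed is not given. Their lack of summits therefore does not show that Mnt-eGFP was absent there. Of the U6 snRNA genes, snRNA:U6:96Ab and snRNA:U6:96Ac shared a peak with a signal of 92.6 (57.8 in replicate 1 and 28.2 in replicate 2), and snRNA:U6:96Aa had no summit in any list used. The 7SK gene snRNA:7SKa had a signal of 246 (163 in replicate 1 and 85.9 in replicate 2), the strongest of the snRNA genes, and snRNA:7SKb had none. RNase MRP RNA had a signal of 81.3 (56.4 in replicate 1 and 32.6 in replicate 2), and the RNase P RNA gene and both SRP RNA genes had no summit. Among the remaining non-coding biotypes, the strongest peak was at Uhg2 and snoRNA:Me18S-A1576 (signal 1403, rank 23), with its summit 199 bp from a start of Bka.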

How the data were processed

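Chromatin of both replicates was sheared by sonication, per the labels. The authors deposited peak lists, each region with a signal and a −log10 q-value from their caller; the −log10 q-value is capped in the deposited lists and was not used. The optimal list is the 7451 pooled regions with the highest deposited signal. For the aligner, the caller and their versions, the status is: not given in the sources used here. Depth in reads is unknown. The control libraries and the dm3 lists were not analysed here.

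Summits were placed 1-based on dm6 and set against gene starts (the 5′ end of the gene record) and protein-coding transcript starts of Ensembl release 115. Clusters were chained over starts up to 1000 bp apart. Shares are over complete lists of genes, so they carry no counting interval, and the error is the SD between 2 replicates, which the labels call biological replicates of the same line. There was 1 group, so no test was run and no p-value is given. The members and lists were chosen with earlier results of these data known. By rule, the genes named were the 10 strongest tRNA peaks, the 10 strongest away from protein-coding starts, every peak within 250 bp away from them, the largest cluster and the strongest other non-coding gene per biotype; the remaining peaks, clusters, copies and list members were named after their values were seen. Of the 25 listed genes of polymerase III transcription and tRNA processing, 1 was found under a newer symbol (l(2)37Cg, now Polr1D). Not every member of that list is named. Alternatives tried were wider and narrower distances, overlap with the gene body, the stronger 3726 peaks, the pooled list, each replicate alone and peaks with no protein-coding start near the summit. Python 3.11.15, numpy 2.4.6, pandas 2.3.3 and matplotlib 3.10.9 were used, and the distance counts were tested on simulated summits.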

Additional observations from a re-analysis of the deposited data

How the results depend on the processing

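Of 77 alternative values, 46 stayed within 1.5 times the reported count, or for medians within the replicate spread, and 31 moved. Bound tRNA genes, 35 as reported, were 22 at 250 bp, 22 by overlap with the gene body, 15 with the stronger part of the optimal list, 180 with the pooled list, 36 to 39 with 1 replicate left out, and 22 with only summits that had no protein-coding start within 500 bp. This last setting was added after seeing the data. The tRNA share was below that of other non-coding genes with the stronger peaks and by overlap. Without a protein-coding start (22 as reported) the count was 36 at 1000 bp, 6 with the stronger peaks and 159 pooled, and with such a start (13) it was 6 at 250 bp, 4 by overlap, 21 pooled and 0 with only summits away from protein-coding starts. Clustered genes (28) numbered 18 at 250 bp, 17 by overlap, 12 with the stronger peaks and 125 pooled, and single genes (7) numbered 4, 3 with the stronger peaks, 55 pooled and 3 with only summits away from protein-coding starts. Other non-coding genes (363) numbered 241 at 250 bp, 610 at 1000 bp, 198 with the stronger peaks, 1058 pooled and 173 with only summits away from protein-coding starts; those without a protein-coding start (172) numbered 379 at 1000 bp, 89 with the stronger peaks and 713 pooled. The median signal at bound tRNA genes (125 per gene) was 40.3 to 84.8 with 1 replicate left out, since the lists differ in scale, and the median position (-37 bp) was -44 to -38 bp. No paired analysis was possible because the series has 1 group. The lists hold no read counts, the pooled and full replicate lists include background, and no immunoprecipitation without the tag was analysed here, so what part of the weak regions at tRNA genes a control would also show was not tested.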
